A study of Mus musculus with 4 samples.

Results

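The 10 genes described here sense oxygen, or respond to it, in group 2 innate lymphoid cells (ILC2s), tissue-resident lymphocytes that make type 2 cytokines. They are the genes of the hypoxia-inducible factor (HIF) alpha subunits, Hif1a and Epas1, of the prolyl hydroxylases, Egln1, Egln2 and Egln3, of the asparaginyl hydroxylase, Hif1an, of the von Hippel-Lindau protein, Vhl, and the HIF target genes Bnip3, Bnip3l and Ankrd37. Members were chosen by gene symbol, and 10 of 10 were found among the 22083 genes of the deposited table. The choice was made with their values in the comparison below already known, so their levels and differences are given as a description, without p-values. The small intestinal lamina propria gave 2 RNA-seq libraries of sorted ILC2s (SI-ILC2s), and mesenteric white adipose tissue another 2 (WAT-ILC2s). All came from wild-type C57BL/6 mice aged 9 weeks, with no treatment named, and there was no group under controlled oxygen. No label gives the sort markers, or says if each library is from a different mouse. The p-values below therefore cover only library-to-library spread, which may be technical. Values are RPKM, reads per gene after the authors scaled them for its length and for library depth.

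In most cells, HIF alpha subunits are made continuously and destroyed when oxygen is present. Prolyl hydroxylases of the EGLN family, also called PHDs, use oxygen to hydroxylate HIF alpha, the VHL protein then recognises it, and a ubiquitin ligase marks it for destruction. The hydroxylase encoded by Hif1an, FIH, modifies an asparagine and so blocks the binding of coactivators. When oxygen is scarce, HIF-1 alpha (Hif1a) or HIF-2 alpha (Epas1) pairs with the constant subunit ARNT and activates genes through a short core motif. In many cells HIF-1 is tied more to glycolysis and mitophagy, and HIF-2 more to iron handling and erythropoietin. Because this control acts on the protein, the RNA level of Hif1a or Epas1 is not a measure of HIF activity, and neither protein levels nor tissue oxygen were measured here.

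Depth, read from the size of the value steps, was about 55700000 to 76250000 reads per library. Gata3, a lineage-defining transcription factor gene, was between 338 and 397 RPKM in all 4 libraries. Summed marker levels of other cells differed between tissues. The 7 red cell genes came to 41.7 and 13.2 RPKM in the SI-ILC2 libraries and 140.0 and 89.0 RPKM in the WAT-ILC2 libraries, and the 5 that could be tested, among them Hba-a1 and Hba-a2, were all higher in WAT-ILC2s. The 6 B and plasma cell genes came to 24.9 and 18.9 RPKM in SI-ILC2s, against 3.07 and 2.61 RPKM in WAT-ILC2s, mostly from Cd79b and Igj. No listed marker was at 0 in all 4 libraries. In these bulk profiles fewer cells of a type and less RNA per cell cannot be told apart, nor can the effects of tissue digestion and of tissue on the ILC2s.

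The dominant HIF alpha transcript was Epas1 in SI-ILC2s and Hif1a in WAT-ILC2s. In the GENCODE M21 annotation of GRCm38, Epas1 is a protein-coding gene on the plus strand at chr17:86753700-86833410, with no exon shared with another gene. Epas1 was at 63.2 and 74.1 RPKM in SI-ILC2 replicates 1 and 2 and at 1.83 and 1.79 RPKM in WAT-ILC2 replicates 1 and 2. The tissues were far apart, with a ratio of means of 37.9. Its difference was 4.63 ± 0.15 (SE), taking WAT-ILC2s from SI-ILC2s as means of log2(RPKM + 1), the scale of all differences here. This was the 4th highest of the 8230 genes that passed the filter of at least 1 RPKM in at least 2 libraries. Adding 1 to each value understates the difference of genes with low levels. Within its own tissue, the mean level of Epas1 lay above 96.1% of these genes in SI-ILC2s and above 21.9% in WAT-ILC2s.

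Hif1a lies on the plus strand at chr12:73901375-73947530. Hif1a was at 19.4 and 33.5 RPKM in the intestinal libraries, against 8.17 and 13.5 RPKM in the adipose libraries. Both intestinal libraries were higher than both adipose libraries, but the libraries of a tissue differed from each other more than for any other member. Replicate 2 was 1.72 times replicate 1 in SI-ILC2s and 1.66 times in WAT-ILC2s, whereas the ratio between tissues was 2.38 for the libraries numbered 1 and 2.47 for those numbered 2. The difference was 1.20 ± 0.31 (SE). Without SI-ILC2 replicate 2 it was 0.82 and no longer called, and without SI-ILC2 replicate 1 it was 1.58. Exons of Hif1a overlap Gm15283 on the opposite strand and Gm49321 on the same strand, and no source used here says if reads were counted by strand.

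RPKM is scaled to gene length, so the levels of the alpha subunit genes can be set against each other within a library, where the scaling between libraries plays no part. Epas1 made up 76.5% and 68.9% of the summed Hif1a and Epas1 RPKM in SI-ILC2s, against 18.3% and 11.7% in WAT-ILC2s. Both alpha genes were higher in SI-ILC2s, and their sum was 82.6 and 107.6 RPKM there against 10.01 and 15.3 RPKM in WAT-ILC2s.

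**Figure D1:**
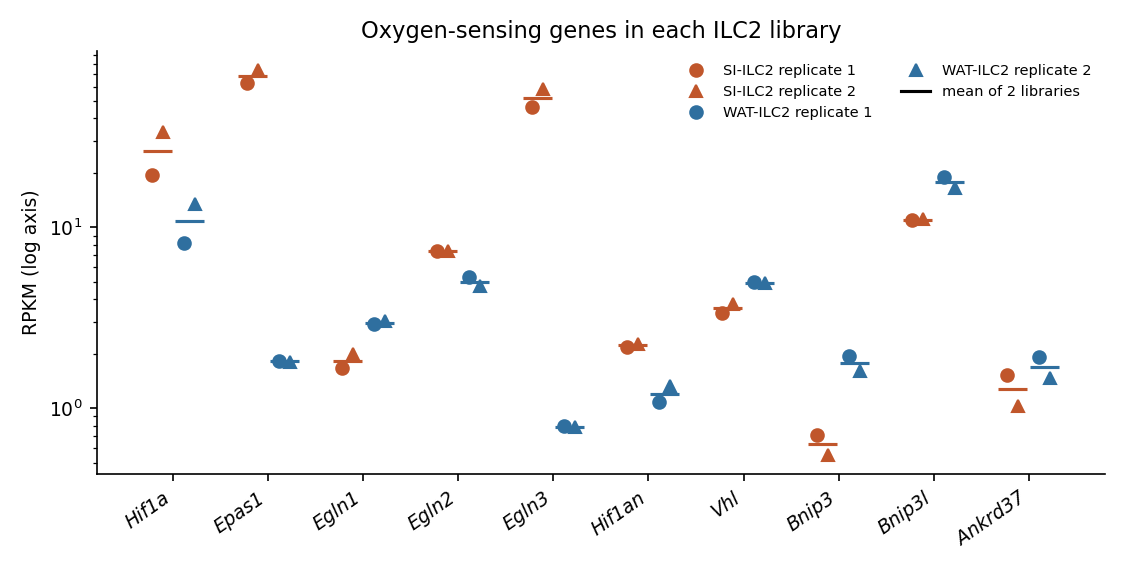
Level of each of the 10 genes (RPKM, log axis) in the 4 libraries, with circles for replicate 1, triangles for replicate 2 and a line at the mean of each tissue. Epas1 and Egln3 are at 46.3 RPKM or more in both SI-ILC2 libraries and at 1.83 RPKM or less in both WAT-ILC2 libraries, and Ankrd37 is the only one of the 10 whose tissues overlap.

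Epas1 is strongly expressed by endothelial cells in many tissues, so the endothelial markers are given beside it. Their summed level over 10 genes was 7.10 and 10.5 RPKM in SI-ILC2s, against 11.6 and 26.5 RPKM in WAT-ILC2s, where Plvap alone was at 5.17 and 16.2 RPKM. Cdh5 and Kdr, which encode VE-cadherin and a VEGF receptor, were at 0.175 and 0.332 RPKM and at 0.158 and 0.122 RPKM in the SI-ILC2 libraries. In the WAT-ILC2 libraries Cdh5 was at 0.592 and 0.821 RPKM and Kdr at 0.335 and 0.319 RPKM, all below the filter. Of the 3 endothelial genes that could be tested, Pecam1 was called higher in SI-ILC2s, at 4.18 against 2.50 RPKM, and Plvap higher in WAT-ILC2s, at 10.7 against 2.23 RPKM. The part of endothelial cells in the level of Epas1 was not tested.

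The prolyl hydroxylases also differed in which family member prevailed. Egln3, which encodes PHD3 and is itself a HIF target gene, was at 46.3 and 57.9 RPKM in the intestinal libraries, against 0.792 and 0.783 RPKM in the adipose libraries. Its ratio of means, 66.2, was the highest of the 10 genes, and its difference of 4.88 ± 0.16 (SE) was the 2nd highest of all genes tested. Its gene lies on the minus strand at chr12:54178981-54203860. Egln3 reached the filter through its SI-ILC2 libraries alone. Its WAT-ILC2 values still rested on about 117 and 137 reads.

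Egln1 encodes PHD2, the main oxygen sensor of the HIF pathway in most cells, and is also induced by HIF. It was at 1.67 and 1.99 RPKM in the intestinal libraries, against 2.90 and 3.04 RPKM in the adipose libraries. It thus went the other way from Egln3, with a difference of -0.49 ± 0.14 (SE). Egln2, which encodes PHD1, was at 7.42 and 7.37 RPKM in the intestinal libraries, against 5.30 and 4.72 RPKM in the adipose libraries, a difference of 0.48 ± 0.14 (SE). The libraries of the tissues did not overlap for either gene, which held for 29.8% of all tested genes toward SI-ILC2s and 45.9% toward WAT-ILC2s. Egln1 lies at chr8:124908587-124949324 and Egln2 at chr7:27158658-27166802, both on the minus strand. Exons of Egln2 overlap Cyp2t4 on the opposite strand.

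Of the summed RPKM of the EGLN genes, Egln3 made up 83.6% and 86.1% in SI-ILC2s, against 8.81% and 9.17% in WAT-ILC2s. Egln2 was the most abundant member in WAT-ILC2s, with 58.9% and 55.3%, against 13.4% and 10.9% in SI-ILC2s. The share of Egln1 was 32.3% and 35.6% in WAT-ILC2s and 3.01% and 2.96% in SI-ILC2s. The summed level was 55.4 and 67.3 RPKM in SI-ILC2s, against 8.99 and 8.54 RPKM in WAT-ILC2s, so Egln3 accounted for most of the family's larger sum in the intestine.

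**Figure D2:**
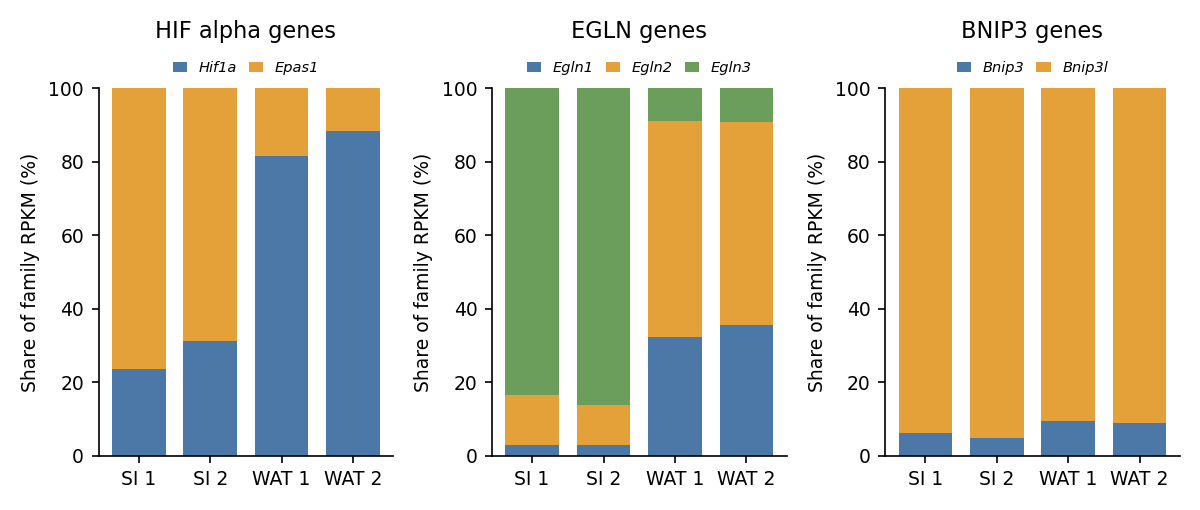
Share of each gene in the summed RPKM of its family (percent), with a stacked bar for each SI-ILC2 and WAT-ILC2 library. Epas1 takes 68.9% or more of the HIF alpha sum in SI-ILC2s and at most 18.3% in WAT-ILC2s, Egln3 takes 83.6% or more against at most 9.17% of the EGLN sum, and Bnip3l takes 90.7% or more of the BNIP3 sum in all 4 libraries.

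Among the other genes that restrain HIF, Hif1an was higher in SI-ILC2s, while Vhl lay toward WAT-ILC2s and was not called. Hif1an was at 2.17 and 2.27 RPKM in the intestinal libraries, against 1.08 and 1.33 RPKM in the adipose libraries, a difference of 0.55 ± 0.13 (SE). Vhl was at 3.38 and 3.77 RPKM in the intestinal libraries, against 4.96 and 4.89 RPKM in the adipose libraries, a difference of -0.38 ± 0.14 (SE). The libraries did not overlap for either gene, as for 29.8% of all tested genes toward SI-ILC2s and 45.9% toward WAT-ILC2s. Hif1an lies at chr19:44562850-44576274 and Vhl at chr6:113623959-113631633, both on the plus strand.

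The HIF target genes Bnip3, Bnip3l and Ankrd37 were not higher in SI-ILC2s, where Epas1, Hif1a and Egln3 were. Bnip3, which encodes a mitophagy receptor and is a classic HIF-1 target, was at 0.708 and 0.552 RPKM in the intestinal libraries, against 1.94 and 1.61 RPKM in the adipose libraries. It was higher in adipose tissue by a ratio of 2.81, with a difference of -0.77 ± 0.13 (SE), and it reached the filter through its WAT-ILC2 libraries alone. Bnip3 lies on the minus strand at chr7:138890836-138909519. Its SI-ILC2 values rested on about 122 and 75 reads, and its exons overlap Gm45507 on the opposite strand.

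Bnip3l encodes NIX, the related receptor that clears mitochondria from maturing red cells. It was at 10.96 and 11.1 RPKM in the intestinal libraries, against 18.9 and 16.5 RPKM in the adipose libraries, a difference of -0.64 ± 0.14 (SE). The red cell genes given above moved the same way, and their part in the level of Bnip3l was not tested. Of the summed RPKM of both receptors, Bnip3 made up 6.07% and 4.76% in SI-ILC2s, against 9.31% and 8.87% in WAT-ILC2s, so Bnip3l was the main transcript in both tissues. Ankrd37, an ankyrin repeat gene induced by HIF-1, was at 1.53 and 1.03 RPKM in the intestinal libraries, against 1.91 and 1.47 RPKM in the adipose libraries. Its tissues overlapped, and its difference was -0.24 ± 0.17 (SE). Bnip3l lies at chr14:66985239-67008877 and Ankrd37 at chr8:45996902-46005707, both on the minus strand. Exons of Ankrd37 overlap Lrp2bp and Ufsp2 on the opposite strand.

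Ordered by mean level, the SI-ILC2 libraries had Epas1, Egln3, Hif1a, Bnip3l, Egln2, Vhl, Hif1an, Egln1, Ankrd37 and Bnip3, and no neighbours in this order overlapped. The WAT-ILC2 libraries had Bnip3l, Hif1a, Egln2, Vhl, Egln1, Epas1, Bnip3, Ankrd37, Hif1an and Egln3. In WAT-ILC2s the libraries of Egln2 and Vhl overlapped, as did those of Epas1, Bnip3 and Ankrd37, so these neighbours did not differ beyond their spread.

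Across all 8230 genes, limma called 1470 (17.9%) higher in the intestine and 2436 (29.6%) higher in adipose tissue at a Benjamini-Hochberg adjusted p below 0.05, or 47.5% in either direction. The first number became 745 without SI-ILC2 replicate 1 and 768 without SI-ILC2 replicate 2, and the second became 1439 without SI-ILC2 replicate 1. Of the 10 genes described here, 5 were called higher in SI-ILC2s (Epas1, Egln3, Hif1a, Hif1an and Egln2), 3 higher in WAT-ILC2s (Bnip3, Bnip3l and Egln1) and 2 were not called (Vhl and Ankrd37). These counts describe genes chosen with this comparison known, and nothing is read from them. Fewer of the 10 were called with a library left out, in part because of the filter. Egln3 was not tested when either SI-ILC2 library was left out, nor Bnip3 when either WAT-ILC2 library was, since too few libraries then reached the filter. Egln1, Egln2, Hif1an and Bnip3l lost their calls without either SI-ILC2 library, Hif1an also without WAT-ILC2 replicate 1, and Egln1 and Egln2 also without WAT-ILC2 replicate 2. Egln1 was also not called after median-of-ratios scaling, after quantile normalization or with no filter, nor Egln2 after rescaling to equal sums or with no filter. With 0.1 in place of 1 added to each value, the difference was -1.36 for Bnip3 and 0.84 for Hif1an. The intestinal libraries were both above the adipose ones for 5 of the genes (29.8% of all tested genes did so), and the reverse held for 4 (45.9%). SI-ILC2s held 37.6% of all calls, against 47.7% after median-of-ratios scaling, 48.4% after quantile normalization and 28.0% after rescaling to equal sums. Over all tested genes the median difference, -0.15 as deposited, came to -0.04, -0.02 and -0.26 under the scalings. The direction of all 10 genes was the same under all of these scalings, with differences of 4.50 to 4.73 for Epas1, 1.05 to 1.33 for Hif1a and -0.34 to -0.09 for Ankrd37.

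**Figure D3:**
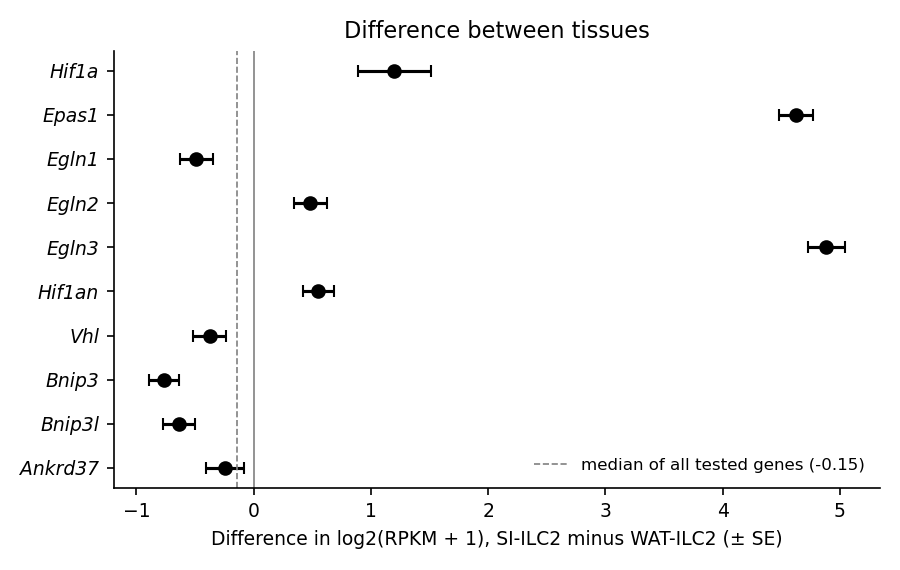
Difference between SI-ILC2 and WAT-ILC2 means of log2(RPKM + 1) for each gene, with its SE as error bars and the median of all tested genes as a dashed line. Epas1 and Egln3 lie at 4.63 and 4.88, Hif1a at 1.20, and the other 7 genes between -0.77 and 0.55.

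The upstream sequences of Egln3, Bnip3 and Ankrd37 are shown because these HIF target genes took different directions. The table of RefSeq promoters (GRCm38.p6) held 8 of the 10 genes, and had no entry for Epas1 and Bnip3l. RefSeq start sites can differ from the ends of the GENCODE genes given above. The windows of Ankrd37, of Hif1a and of 1 start site of Egln2 lie inside those gene spans. The core motif of HIF was searched as ACGTG and GCGTG on both strands in the 250 bases before the start site, with CACGTG, the E-box palindrome that other helix-loop-helix factors bind, counted as 1 match. Each sequence reads 5′ to 3′ on the strand of its gene, all 3 on the minus strand of the chromosome, and capitals mark the matches.
Egln3, chr12:54203875-54204124: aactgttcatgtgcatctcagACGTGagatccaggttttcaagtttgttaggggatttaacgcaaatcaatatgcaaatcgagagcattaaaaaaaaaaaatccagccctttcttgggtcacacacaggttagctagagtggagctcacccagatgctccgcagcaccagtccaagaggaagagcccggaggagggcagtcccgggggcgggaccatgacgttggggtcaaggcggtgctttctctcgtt
Bnip3, chr7:138909507-138909756: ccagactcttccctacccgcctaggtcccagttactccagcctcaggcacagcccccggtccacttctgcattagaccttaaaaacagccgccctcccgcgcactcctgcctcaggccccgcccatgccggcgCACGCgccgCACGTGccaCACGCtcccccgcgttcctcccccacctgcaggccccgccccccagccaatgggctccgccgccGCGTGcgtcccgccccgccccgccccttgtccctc
Ankrd37, chr8:45999851-46000100: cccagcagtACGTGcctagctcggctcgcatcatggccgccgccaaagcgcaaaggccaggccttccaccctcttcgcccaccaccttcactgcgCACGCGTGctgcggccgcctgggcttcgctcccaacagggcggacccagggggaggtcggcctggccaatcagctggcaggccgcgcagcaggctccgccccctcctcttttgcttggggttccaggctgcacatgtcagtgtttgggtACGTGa

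Bnip3 and Ankrd37, which were not higher in SI-ILC2s, had 4 matches each, and Egln3, with the highest ratio toward SI-ILC2s, had 1. The match of Egln3 began at position -229, counted from the start site. Those of Bnip3 clustered, with 3 of the 4 starting between -117 and -99, and 2 of those of Ankrd37 overlapped each other. Egln2, which was higher in SI-ILC2s, had 4 matches at its first start site and 1 at its second. Genes with 4 matches thus did not share a direction. Hif1a, higher in SI-ILC2s, and Egln1, higher in WAT-ILC2s, had 2 each, and Vhl and Hif1an had none in this window. Of all 32851 promoter windows 38.6% held at least 1 match and 4.87% held 3 or more, and of the 7980 windows of tested genes these shares were 58.6% and 10.1%. A match is a description of the letters only, and no binding was measured.

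**Figure D4:**
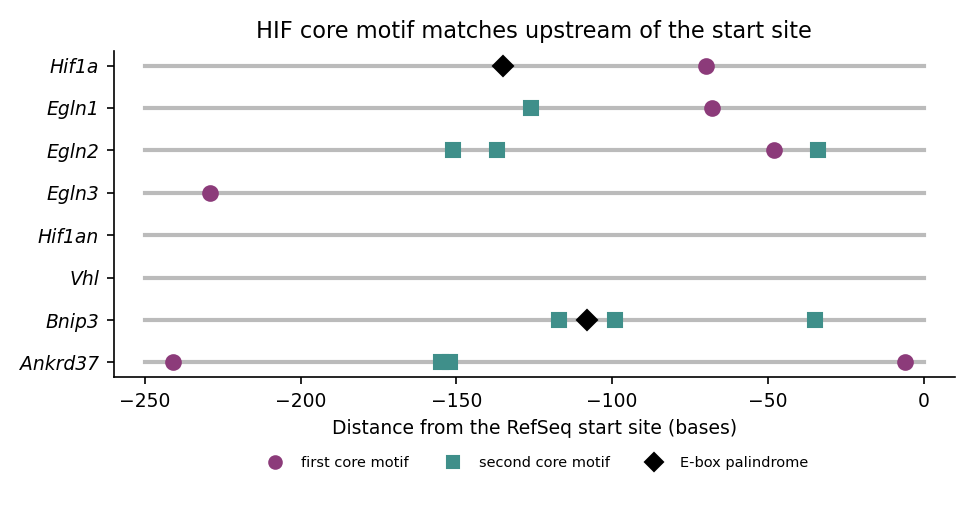
Positions of the core motif matches in the 250 bases before the first RefSeq start site of the 8 genes with a promoter entry, with a circle for ACGTG, a square for GCGTG (either strand) and a diamond for the palindrome CACGTG. Bnip3, Ankrd37 and Egln2 show 4 matches each and Egln3 shows 1.

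Whether known HIF target genes had the direction of Hif1a and Epas1 was described with 3 lists of other genes. These lists and those that follow were also chosen with earlier results of these data known. Most genes named from them were picked because they were called, so their p-values describe these data and are no independent test. Since both alpha genes were higher in SI-ILC2s and only 4 libraries were available, direction alone cannot tell a gene that follows Hif1a from one that follows Epas1, and no correlation was computed. Of 46 listed target genes, 31 passed the filter, 7 of them (22.6%) were called higher in SI-ILC2s, 12 (38.7%) higher in WAT-ILC2s and 12 were not called, against 17.9% and 29.6% of all tested genes. Their median difference was -0.14, beside -0.15 for all tested genes. They lay on both sides of 0, with 14 above and 17 below it. Without SI-ILC2 replicate 1 the 7 calls became 3 and the 12 became 8. None of the 31 had a difference near that of Epas1, and toward SI-ILC2s only those of Bhlhe40 and Ero1l exceeded that of Hif1a.

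Among 12 tested targets tied mainly to HIF-1, most of them genes of glycolysis, 2 (16.7%, against 17.9% of all tested genes) were called higher in SI-ILC2s. In the WAT-ILC2 direction 5 (41.7%, against 29.6%) were called. The median was 0.09, beside -0.15 for all tested genes, with 7 differences above 0 and 5 below it. Pdk1, whose kinase limits the oxidation of pyruvate, fell from 7.59 ± 0.11 RPKM in WAT-ILC2s to 2.44 ± 0.26 in SI-ILC2s (difference -1.32, limma adjusted p = 0.0011). Eno1, the gene of enolase, fell from 141 ± 25.2 to 58.5 ± 8.95 RPKM (difference -1.25, limma adjusted p = 0.0036). Pfkl (11.1 against 4.49 RPKM), which encodes a phosphofructokinase subunit, Tpi1 (19.2 against 12.8 RPKM) and the lactate exporter gene Slc16a3 (3.17 against 0.364 RPKM) were also higher in WAT-ILC2s. Slc16a3 reached the filter through those libraries alone, so it was not tested when either of them was left out. Pgam1 (28.3 against 16.6 RPKM), which encodes phosphoglycerate mutase, and Hk2 (11.3 against 7.48 RPKM), which encodes a hexokinase, were higher in SI-ILC2s. Pgk1 and Ldha, classic HIF-1 targets, were at 74.2 and 379 RPKM in SI-ILC2s, against 52.7 and 360 RPKM in WAT-ILC2s, with limma adjusted p-values of 0.068 and 0.74. The mean difference of Ldha changed sign after rescaling to equal sums and after quantile normalization. The 2 calls toward SI-ILC2s became 0 without SI-ILC2 replicate 1 and 1 without SI-ILC2 replicate 2, and the 5 toward WAT-ILC2s became 3 without WAT-ILC2 replicate 1. Pgam1 lost its call without SI-ILC2 replicate 1, Hk2 and Tpi1 without either SI-ILC2 library, Hk2 without WAT-ILC2 replicate 2 and Tpi1 without WAT-ILC2 replicate 1. Hk2 was also not called after rescaling to equal sums, Tpi1 after median-of-ratios scaling, and both with no filter. With 0.1 added in place of 1 the difference of Slc16a3 was -2.80. With the replicate number as a block, 5 genes of this list were called in each direction.

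Of 11 targets tied mainly to HIF-2, only 3 passed the filter. Of these, 1 (33.3%, against 29.6% of all tested genes) was called higher in WAT-ILC2s and 2 were not called. Their median was -0.35, beside -0.15 for all tested genes. Arg1, the gene of arginase-1 and a HIF-2 target in macrophages, fell from 170.2 ± 31.3 RPKM in WAT-ILC2s to 56.3 ± 5.30 in SI-ILC2s (difference -1.57, limma adjusted p = 0.0014). Slc11a2, the iron transporter DMT1, was at 1.95 ± 0.05 RPKM in SI-ILC2s, against 2.77 ± 0.08 in WAT-ILC2s, with a limma adjusted p of 0.070. Adora2a, an adenosine receptor gene, was at 10.8 and 38.0 RPKM in the intestinal libraries, against 6.77 and 34.3 RPKM in the adipose libraries. Its libraries numbered 2 were high in both tissues, and the tissues overlapped. Its difference, 0.37 over all libraries, was 1.23 without SI-ILC2 replicate 1, -0.48 without SI-ILC2 replicate 2, -0.72 without WAT-ILC2 replicate 1 and 1.47 without WAT-ILC2 replicate 2. Slc11a2 was called after rescaling to equal sums and with the replicate block. Without WAT-ILC2 replicate 2, 1 gene of the list was called higher in SI-ILC2s, and without WAT-ILC2 replicate 1, 2 were called higher in WAT-ILC2s. With the replicate number as a block, 1 was called toward SI-ILC2s and 2 toward WAT-ILC2s.

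Among 16 tested targets shared by HIF-1 and HIF-2, 5 (31.2%, against 17.9% of all tested genes) were called higher in SI-ILC2s. In the WAT-ILC2 direction 6 (37.5%, against 29.6%) were called. The median was -0.14, beside -0.15 for all tested genes. Bhlhe40, a transcriptional repressor gene, rose from 112 ± 4.23 RPKM in WAT-ILC2s to 328 ± 16.1 in SI-ILC2s (difference 1.54, limma adjusted p = 9.4e-04). Ero1l, an oxidase gene of the endoplasmic reticulum, rose from 29.7 ± 5.42 to 83.7 ± 12.3 RPKM (difference 1.47, limma adjusted p = 0.0019). Plin2 (35.1 against 19.6 RPKM), Mxi1 (9.15 against 5.96 RPKM) and Fam162a (1.93 against 0.886 RPKM) were also higher in SI-ILC2s. Vegfa, the main angiogenic target, fell from 14.1 ± 2.23 RPKM in WAT-ILC2s to 3.16 ± 1.01 in SI-ILC2s (difference -1.87, limma adjusted p = 0.0012). Adm, the gene of adrenomedullin, fell from 7.70 ± 0.54 to 1.62 ± 0.31 RPKM (difference -1.74, limma adjusted p = 6.5e-04). Stc2, the gene of stanniocalcin 2, was at 4.08 ± 0.04 RPKM in WAT-ILC2s, against 0.245 ± 0.09 in SI-ILC2s, a difference of -2.03, and it reached the filter through its WAT-ILC2 libraries alone. The glucose transporter gene Slc2a1 (30.4 against 16.7 RPKM), the transferrin receptor gene Tfrc (20.4 against 13.8 RPKM) and Kdm3a (5.82 against 3.88 RPKM), which encodes a histone demethylase, were also higher in WAT-ILC2s. The difference of Slc2a1 was -0.52 without WAT-ILC2 replicate 2, and with 0.1 added in place of 1 that of Stc2 was -3.63 and that of Fam162a 1.10. Without SI-ILC2 replicate 1 the calls of Mxi1, Fam162a, Slc2a1, Tfrc and Kdm3a were lost, and without SI-ILC2 replicate 2 those of Mxi1, Tfrc and Kdm3a. Calls were also lost without WAT-ILC2 replicate 1 (Mxi1 and Fam162a) and without WAT-ILC2 replicate 2 (Tfrc and Kdm3a). Mxi1 was not called after rescaling to equal sums, Tfrc and Kdm3a after median-of-ratios scaling, Kdm3a after quantile normalization, and Mxi1, Fam162a, Slc2a1 and Kdm3a with no filter. The 5 and 6 calls became 3 and 3 without SI-ILC2 replicate 1, and the 5 became 3 without WAT-ILC2 replicate 1.

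**Figure D5:**
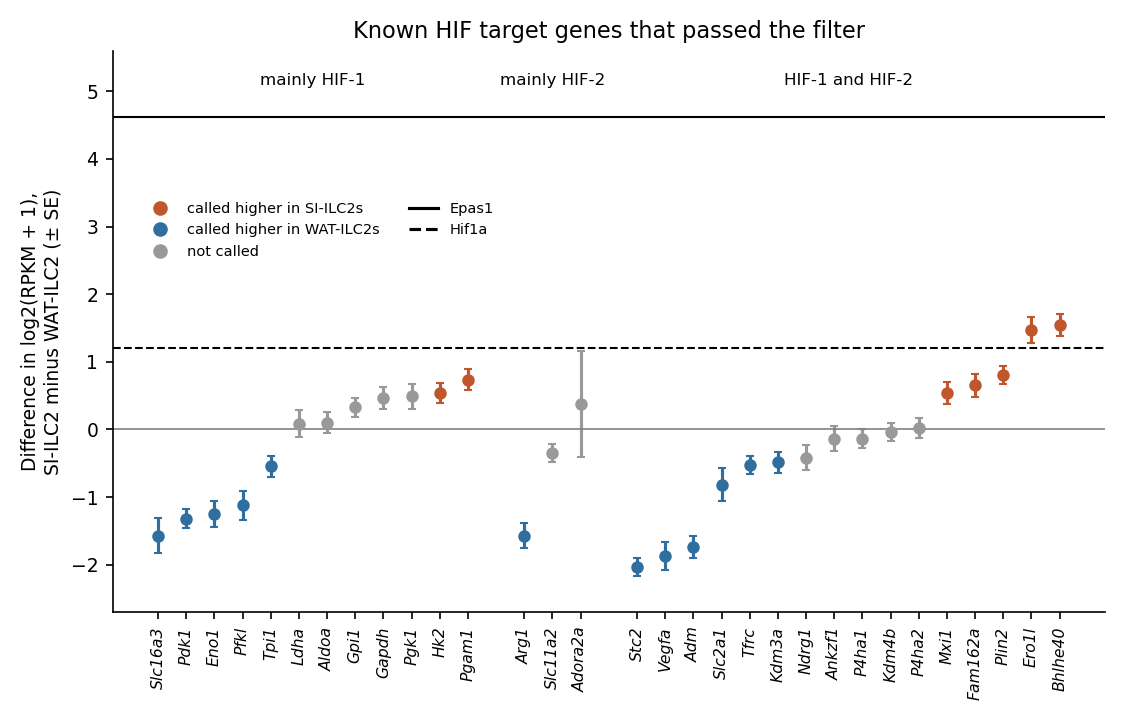
Difference between SI-ILC2 and WAT-ILC2 means of log2(RPKM + 1), with SE as error bars, for the 31 HIF target genes that passed the filter, grouped by the factor they are mainly tied to and coloured by the limma call. Horizontal lines mark Epas1 at 4.63 and Hif1a at 1.20, and the targets spread on both sides of 0, from -2.03 for Stc2 to 1.54 for Bhlhe40.

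Of the partner genes of HIF alpha, Cited2 and Cited4 were called higher in SI-ILC2s and the constant subunit gene was not called. Of 7 listed partner and coregulator genes 4 passed the filter, of which 2 (50%, against 17.9% of all tested genes) were called higher in SI-ILC2s and 2 were not called, with a median of 0.35. Arnt, the gene of the constant subunit, was at 5.28 and 6.14 RPKM in the intestinal libraries, against 4.19 and 5.28 RPKM in the adipose libraries, a difference of 0.23 with a limma adjusted p of 0.28. Hif3a, the gene of the third alpha subunit, was at 0.146 RPKM or less in all 4 libraries, and Arnt2 at 0.0812 RPKM or less. The coactivator gene Crebbp was at 1.98 and 1.83 RPKM in the intestinal libraries, against 2.39 and 2.11 RPKM in the adipose libraries (difference -0.16, limma adjusted p = 0.35). Its relative Ep300, below the filter, was at 0.442 and 0.601 RPKM in the intestinal libraries, against 0.812 and 1.04 RPKM in the adipose libraries. The proteins of Cited2 and Cited4 bind the coactivators that HIF uses. Cited2 rose from 30.1 ± 2.98 to 42.1 ± 4.60 RPKM (difference 0.47, limma adjusted p = 0.047) and Cited4 from 0.830 ± 0.58 to 5.29 ± 2.36 RPKM (difference 1.77, limma adjusted p = 0.0057). The Cited2 call was lost without either SI-ILC2 library, without WAT-ILC2 replicate 2, after rescaling to equal sums and with no filter.

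Of 6 tested genes of the VHL ubiquitin ligase and of the SIAH ligases, which degrade prolyl hydroxylases, 2 (33.3%, against 17.9% of all tested genes) were called higher in SI-ILC2s and 1 (16.7%, against 29.6%) in the WAT-ILC2 direction, with a median of 0.38. Cul2, the scaffold of the VHL ligase, fell from 24.1 ± 1.99 RPKM in WAT-ILC2s to 14.4 ± 1.59 in SI-ILC2s (difference -0.71, limma adjusted p = 0.010), the direction in which Vhl lay. The adaptor gene Eloc, listed as Tceb1, rose from 1.02 ± 0.34 to 2.38 ± 0.17 RPKM (difference 0.75, limma adjusted p = 0.011), and Siah1a from 1.78 ± 0.07 to 3.45 ± 0.60 RPKM (difference 0.67, limma adjusted p = 0.014). Siah2 was at 32.1 ± 5.62 RPKM in SI-ILC2s, against 22.8 ± 5.26 in WAT-ILC2s, with a limma adjusted p of 0.096. The difference of Siah2 was 0.31 without SI-ILC2 replicate 1 and 0.26 without WAT-ILC2 replicate 2, and it was called without WAT-ILC2 replicate 1, at 0.71, and with the replicate block. The calls of Cul2 and Siah1a were lost without SI-ILC2 replicate 1. With 0.1 added in place of 1 the difference of Tceb1 was 1.18.

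The genes whose pattern over the 4 libraries was nearest to that of Epas1 and of Hif1a were found by the Euclidean distance between log2(RPKM + 1) values, each centred on its own mean, over 3449 other genes with a mean of at least 5 RPKM. Predicted genes, RIKEN and accession-style names and antigen receptor segments were left out. Egln3 was the nearest to Epas1, at a distance of 0.27, followed by Abhd17c at 0.44, Dkk3 at 0.44, Ptgs2 at 0.46 and Abcb1a at 0.52. Nearest to Hif1a were Galnt2 at 0.28, Il2rb at 0.29, Jun at 0.33, Ptger4 at 0.34 and Mapkapk2 at 0.36. Hif1a ranked 217th by distance to Epas1, at 3.48. These distances rest on 4 libraries and are a description. For Epas1 and Egln3 the distance follows mainly their differences between tissues, 4.63 and 4.88. Both genes were chosen with these differences known, and shared control was not tested.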

How the data were processed

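A single table of RPKM, covering 22083 genes with a column per library, was deposited by the authors, and each column name matched a single sample title. STAR 2.6.0, featureCounts 1.6.0 (Subread) and the mouse build GRCm38 (mm10) are named in the submitters' processing notes. Not given in the sources used here are the gene annotation, the use of strand, and how multi-mapped reads were handled. As RPKM is a normalized unit, no count model was fitted. Genes with at least 1 RPKM in at least 2 libraries (8230) were compared as log2(RPKM + 1) with limma 3.58.1 in R 4.3.3 (variance trend, no covariate, Benjamini-Hochberg adjustment over all tested genes, threshold 0.05). The fit had 6.39 total degrees of freedom. It was also run on simulated libraries drawn independently of each other. In the data, libraries of the same number deviated together, so that run does not vouch for the calls given here. Depth was estimated from single-exon genes, in which 79.3% to 81.4% of low values were whole reads within 0.1 at the best depth. Of these whole numbers 67.4% to 73.3% were even, and how many separate fragments the reads stand for was not tested. Approximate reads per gene use exon lengths of GENCODE M21, as do overlaps.

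The 10 genes and all lists were chosen with earlier results of these data known. Named list genes were up to 4 called genes per direction whose libraries did not overlap, averaging 5 RPKM or more in the higher tissue, with Arnt and Hif3a; Pgk1, Ldha, Slc16a3, Stc2, Fam162a, Kdm3a, Slc11a2, Adora2a, Arnt2, Tceb1, Siah1a, Siah2, Crebbp, Ep300, Cdh5 and Kdr were named after their values were seen. Of each marker list the 2 most abundant genes are named, and of the ILC2 list also all called genes. The intestinal epithelial (Epcam, Krt8), fibroblast (Col3a1, Dcn), adipocyte (Fabp4, Lipe), macrophage and dendritic cell (Cd68, Lyz2) and T cell (Cd3g, Cd3e) lists came to 5.91 and 13.4, 0.530 and 0.590, 1.13 and 0.803, 4.41 and 2.37, and 8.53 and 6.82 RPKM in SI-ILC2 replicates 1 and 2. In WAT-ILC2 replicates 1 and 2 they came to 9.36 and 8.68, 10.01 and 4.58, 5.33 and 4.76, 6.91 and 8.99, and 23.2 and 12.4 RPKM. The ILC2 markers (Gata3, Areg) came to 1227 and 1239, and 1107 and 1056 RPKM. Older symbols were used for 5 list genes. Alternatives were other pseudocounts, filters and scalings, a replicate block and leaving out each library. Other steps used numpy 2.4.6 and pandas 2.3.3 under Python 3.11.15, with figures from matplotlib 3.10.9.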

Additional observations from a re-analysis of the deposited data

How the results depend on the processing

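The direction of all 10 genes was the same under each alternative in which they were tested. Of 543 values of 47 genes (the 10 genes and 37 named list genes) under the alternatives, 453 kept direction and side of the threshold, 75 lost a call, 10 gained one and 5 reversed. Adora2a reversed from 0.37 to -0.485 without SI-ILC2 replicate 2 and -0.717 without WAT-ILC2 replicate 1, in a range of -0.717 to 1.47. Ldha reversed from 0.09 to -0.0671 after rescaling to equal sums, -0.21 with quantile normalization and -0.102 without WAT-ILC2 replicate 1, where leaving out each library gave -0.102 to 0.277. With no library left out, the calls of Epas1, Egln3, Hif1a and Bnip3l held under each alternative, and those of Bnip3 and Hif1an under each that tested them. As the genes were chosen with this comparison known, this is a description and no support for their differences. Hif1a lost its call without SI-ILC2 replicate 2, and Vhl gained one with the replicate block and after rescaling to equal sums. Numbers of genes called are given below as higher in SI-ILC2s, then higher in WAT-ILC2s, and the cause of their changes was not tested beyond the smaller number of genes or libraries in a fit. A filter of 5 RPKM gave 899 and 1182 genes (of 3933), 5 SI-ILC2 calls in the partner, ligase and mitophagy lists and 1 WAT-ILC2 call among the 10 genes. With no filter, HIF-1, HIF-2 and shared targets had 1, 1 and 3 SI-ILC2 calls. Rescaling to equal sums left 1 SI-ILC2 call among HIF-1 targets, 2 WAT-ILC2 calls among HIF-2 targets and 5 and 5 calls in the partner, ligase and mitophagy lists. The replicate block gave 2271 and 3430 genes, 11 SI-ILC2 calls among all HIF targets, 5 among HIF-1 targets, 1 and 2 among HIF-2 targets and 6 WAT-ILC2 calls in the partner, ligase and mitophagy lists. Libraries of the same number deviated together (r = 0.572 across genes, which are not independent), but with 2 pairs and no label on shared mice or days the numbers are not taken as pairs. Leaving out each library in turn gave 745 to 1549 and 1439 to 1995 genes, 1 to 4 and 1 to 2 calls among the 10 genes, 3 to 8 and 8 to 10 among all HIF targets, 0 to 3 and 3 to 4 among HIF-1 targets, 0 to 1 and 1 to 2 among HIF-2 targets, 3 to 5 and 3 to 5 among shared targets, and 3 to 9 and 1 to 4 in the partner, ligase and mitophagy lists. In these fits a lone library is assumed to vary like the others, and without WAT-ILC2 replicate 1 or 2 the fit had 7550 or 7520 total degrees of freedom (41.7 with the block), so these p-values rest almost wholly on a spread pooled over genes. Egln3 was below the filter when either SI-ILC2 library was left out. Bnip3, Slc16a3 and Stc2 were below it when either WAT-ILC2 library was, so part of the lower counts is due to genes not tested. With 2 libraries a tissue, leaving out 1 gives the other library's family share, so it is no test of the shares. Depth limits Bnip3 and Ankrd37 most, with about 75 and 94 reads in SI-ILC2 replicate 2.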

Other observations

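Genes that act with Bnip3 and Bnip3l in mitophagy, the removal of mitochondria by autophagy, changed in both directions. Of 11 tested genes of the list, 4 were called higher in SI-ILC2s (36.4%, against 17.9% of all tested genes) and 2 higher in WAT-ILC2s (18.2%, against 29.6%), with a median difference of -0.05. Gabarapl1, of the family that autophagy receptors bind, rose from 2.81 ± 0.60 RPKM in WAT-ILC2s to 6.54 ± 0.01 in SI-ILC2s (limma adjusted p = 0.0043), while its relative Gabarapl2 fell from 14.7 ± 1.61 to 7.96 ± 0.30 RPKM (limma adjusted p = 0.0059), the direction of Bnip3 and Bnip3l. The receptor gene Sqstm1 (124 against 68.1 RPKM), Map1lc3b (26.5 against 17.6 RPKM) and the prohibitin gene Phb2 (32.4 against 22.3 RPKM) were higher in SI-ILC2s. Pink1, the kinase gene of the other mitophagy route, was at 9.88 RPKM in SI-ILC2s and 15.02 RPKM in WAT-ILC2s (limma adjusted p = 0.049), and its call was lost under 9 of 12 alternatives. Sqstm1 lost its call without SI-ILC2 replicate 1. Map1lc3b and Phb2 lost theirs without SI-ILC2 replicate 1, SI-ILC2 replicate 2 or WAT-ILC2 replicate 2, after rescaling to equal sums and with no filter.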
